A study of Homo sapiens with 42 samples.

Results

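Contacts of a fountain-like structure on human chromosome 9 were compared between S4 cells, in the middle of S phase, and G1 cells. The comparison used 8 of the 42 libraries of the series, chosen by their labels: the Proximal and Distal primers, each with 2 S4 and 2 G1 libraries. The cells were K562, a chronic myeloid leukaemia (CML) line, with the FUCCI cell-cycle reporter knocked in at the AAVS1 locus in every group. Asynchronous cells were stained with Hoechst33342, a DNA dye, sorted by flow cytometry into G1 and 6 S fractions (S4 is the fourth of them), fixed with 1% PFA and digested with DpnII. All groups came from this 1 line. Both primers lie inside the structure by their labels, and a primer labelled Outside serves here only to mark a position. No label tells whether the 2 libraries of a group were separate cultures. The p-values then measure only how these libraries scatter, and that scatter may be technical.

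A fountain is a plume in a contact map that starts at a point on the chromosome and spreads away from the diagonal, which means that stretches on the flanks of that point meet each other. In S phase, replication forks leave an origin in both directions, and sorting by DNA content separates cells by how far replication has gone. An assay from a viewpoint reads 1 row of such a map: DNA ends that were ligated to the viewpoint's restriction fragment are copied from a primer and located in the genome. In the gene order of the RefSeq table of GRCh38.p14, the neighbourhood runs from RAD23B and KLF4, which encodes a transcription factor, through ACTL7B, ACTL7A, CTNNAL1 and TMEM245 to EPB41L4B, PTPN3 (a protein tyrosine phosphatase) and PALM2AKAP2. That order is background: the windows below are in hg19, and they were not placed in genes here.

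Each library listed 16350 lines with 1 position each, and each line is called a contact here. Lines that repeat a position may be copies of 1 molecule or separate molecules, which could not be told apart. The Proximal viewpoint lies at position 111624875 of chromosome 9 (hg19) and the Distal one at 111525048, 99.8 kb towards lower coordinates. The local zone ran from 20 kb to 2 Mb on each side of a viewpoint. It held 8767 and 8920 Proximal contacts in the S4 libraries, against 6149 and 6261 in the G1 libraries. For Distal it held 10813 and 10957 contacts in S4, against 8401 and 8309 in G1. The S4 libraries therefore placed 1.43 times as many contacts in the zone as the G1 libraries from Proximal and 1.30 times as many from Distal. Contacts elsewhere on chromosome 9, beyond 2 Mb, were 9.10% and 8.51% of the S4 libraries against 16.9% and 16.7% of the G1 libraries for Proximal, and 9.73% and 8.95% against 20.1% and 21.2% for Distal. Contacts within 20 kb of the viewpoint were 29.2% and 29.4% in S4 against 35.6% and 35.1% in G1 for Proximal, and overlapped for Distal (14.9% and 16.5% in S4, 17.2% and 16.3% in G1). Because the zone itself held more contacts in S4, changes are given relative to the local contacts, and the counts, distance classes and stretches also relative to all contacts of the library. Repeated positions made up 57.1% and 54.4% of the local contacts in S4 and 56.3% and 51.9% in G1 for Proximal, and 41.7% and 39.2% in S4 against 36.7% and 34.5% in G1 for Distal. The calls were therefore also made with each position counted once, which gave 13 Proximal windows of 10 kb against 23 with every contact, 47 Distal windows against 55, and 10 called from both primers against 19.

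The first question was on which side of the viewpoints, and at what distance, contacts were gained and lost. Sharing out the local contacts by side and distance, S4 cells had more contacts on the higher-coordinate side between 250 kb and 1 Mb, and fewer on the lower-coordinate side beyond 1 Mb, from both primers. The higher side as a whole held 62.2% and 60.7% of local Proximal contacts in S4, against 49.6% and 50.8% in G1. From Distal it held 39.0% and 39.7% in S4, against 33.2% and 33.1% in G1. In both primers the profile thus leaned further to the higher side in S4, by 11.3 points for Proximal and 6.21 points for Distal.

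**Figure D1:**
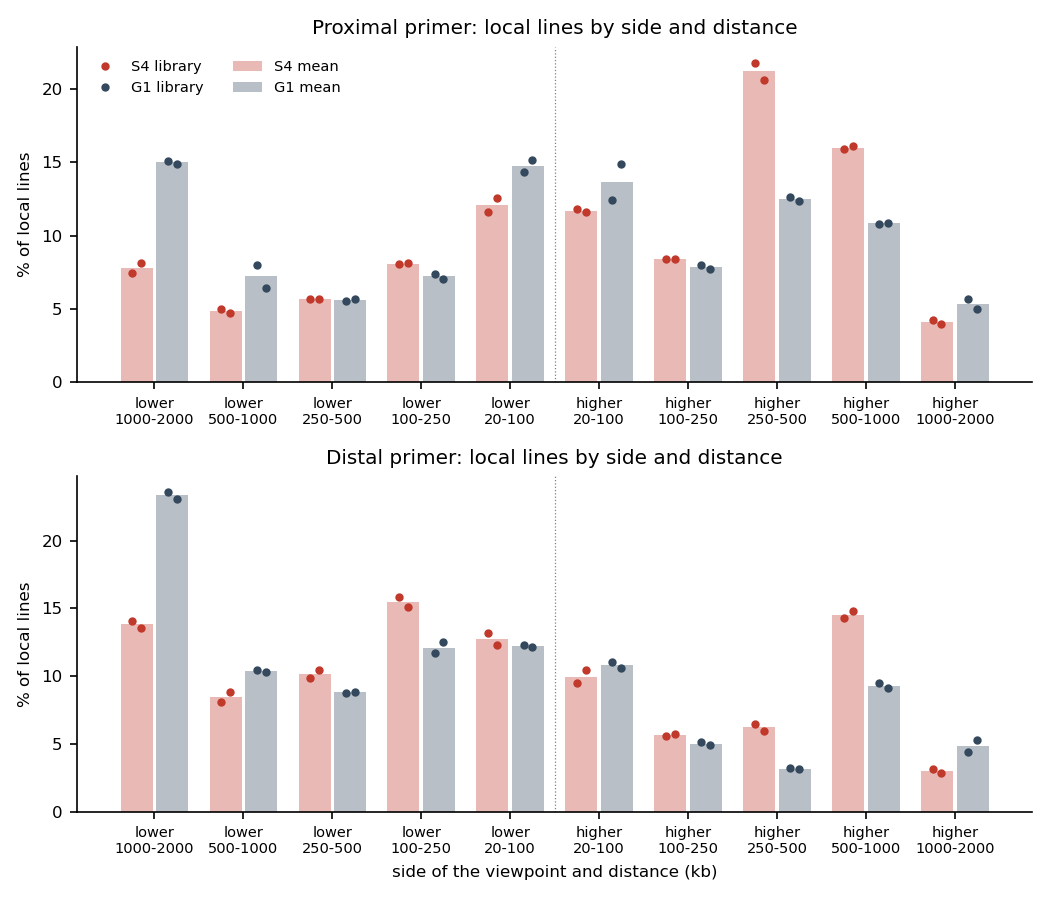
Share of local contacts (% of lines from 20 kb to 2 Mb) by side of the viewpoint and distance in kb, for the Proximal (top) and Distal (bottom) primers; points are single libraries and bars the mean of 2, S4 left of G1. S4 stands above G1 at 250-500 and 500-1000 kb on the higher side (21.8% and 20.6% against 12.7% and 12.4% for Proximal at 250-500 kb) and below it at 1000-2000 kb on the lower side.

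On the higher side, the class at 250 to 500 kb held 21.8% and 20.6% of local Proximal contacts in S4 and 12.7% and 12.4% in G1, a fold of 1.70. From Distal it held 6.48% and 5.97% in S4 and 3.19% and 3.18% in G1, a fold of 1.96. The next class, 500 kb to 1 Mb, held 15.9% and 16.1% of Proximal contacts in S4 against 10.8% and 10.9% in G1, and 14.3% and 14.8% of Distal contacts in S4 against 9.46% and 9.11% in G1. These 4 gains were 1.48-fold to 1.96-fold, and the libraries of a group lay closer together than the groups did. Nearer than 100 kb on the higher side S4 was below G1, with 11.8% and 11.6% against 12.4% and 14.9% for Proximal and 9.49% and 10.4% against 11.1% and 10.6% for Distal. Beyond 1 Mb it was below as well, with 4.28% and 3.97% against 5.68% and 5.00% for Proximal and 3.13% and 2.83% against 4.38% and 5.30% for Distal. Between these, at 100 to 250 kb, S4 was above G1 by less, with 8.42% and 8.42% against 8% and 7.75% for Proximal and 5.60% and 5.76% against 5.13% and 4.91% for Distal.

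On the lower side, the class from 1 to 2 Mb held 7.47% and 8.12% of local Proximal contacts in S4 and 15.1% and 14.9% in G1, a fold of 0.520. From Distal it held 14.05% and 13.6% in S4 and 23.6% and 23.1% in G1, a fold of 0.592. The class at 500 kb to 1 Mb was lower in S4 too, with a difference of -2.35 points for Proximal (5.03% and 4.73% in S4, 8.02% and 6.44% in G1) and -1.94 points for Distal (8.07% and 8.85% in S4, 10.5% and 10.3% in G1). Nearer to the viewpoint on this side, the gain was larger in points for Distal: 100 to 250 kb held 15.9% and 15.1% in S4 against 11.7% and 12.5% in G1, whereas Proximal had 8.04% and 8.13% against 7.40% and 7.04%. At 250 to 500 kb Distal had 9.87% and 10.4% in S4 against 8.78% and 8.83% in G1, while the Proximal libraries overlapped, with 5.67% and 5.70% in S4 and 5.56% and 5.69% in G1. At 20 to 100 kb Proximal had 11.6% and 12.6% in S4 against 14.4% and 15.1% in G1, and Distal had 13.2% and 12.29% against 12.26% and 12.1%. The difference between primers in these shares was not tested.

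The S4 and G1 libraries did not overlap in 9 of 10 Proximal classes (4 higher and 5 lower in S4) and in all 10 Distal classes (6 higher and 4 lower). As a background, both S4 libraries stood above both G1 libraries in 27.9% and below them in 23.5% of the 183 Proximal 10 kb windows tested below, and in 28.8% and 29.2% of the 250 Distal ones. An exact two-sided permutation test of 2 against 2 libraries cannot give a p under 0.333, so no class could pass 0.05. As a share of all contacts of the library, the gains were larger: 2.42-fold and 2.11-fold for Proximal at 250 to 500 and 500 to 1000 kb on the higher side, and 2.55-fold and 2.04-fold for Distal. The loss at 1 to 2 Mb on the lower side shrank on this scale, to a fold of 0.741 for Proximal and 0.771 for Distal. The small losses at 20 to 100 kb on both sides of Proximal and on the higher side of Distal turned into gains. So did the loss at 1 to 2 Mb on the higher side of Proximal. At 500 to 1000 kb on the lower side, the S4 and G1 libraries overlapped on this scale. Distal had 5.34% and 5.93% in S4 against 5.38% and 5.25% in G1, and Proximal 2.70% and 2.58% against 3.02% and 2.46%.

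The contacts of each side also moved in distance. On the higher side, the median distance of local Proximal contacts was 390 and 389 kb in S4 and 342 and 318 kb in G1, and that of Distal contacts 457 and 442 kb in S4 and 286 and 348 kb in G1. On the lower side it was 239 and 225 kb in S4 against 395 and 307 kb in G1 for Proximal, and 286 and 303 kb in S4 against 519 and 499 kb in G1 for Distal. Contacts therefore lay farther out on the higher side and closer in on the lower side in S4, without overlap of the libraries.

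To place these changes along the chromosome, windows of fixed width were tested with limma, using the spread over all 14 libraries of a primer, at a Benjamini-Hochberg adjusted p below 0.05. In 50 kb windows scaled to local contacts, 8 of 69 Proximal windows were higher in S4 (11.6%) and 12 were lower (17.4%). From Distal, 17 of 71 were higher (23.9%) and 25 were lower (35.2%). When each S4 or G1 library was left out in turn, 5 of the 8 higher and 4 of the 12 lower Proximal windows kept their call every time, as did 10 of the 17 higher and 11 of the 25 lower Distal windows. The Proximal count was 12 without S4 replicate 1, against 20 with all libraries, and the Distal count was 28 without G1 replicate 2, against 42. At a width of 10 kb, S4 was higher in 14 of 183 Proximal windows (7.65%) and lower in 9 (4.92%). For Distal it was higher in 30 of 250 (12.0%) and lower in 25 (10.0%). At 20 kb, 11 of 152 Proximal windows rose (7.24%) and 15 fell (9.87%), while 22 of 163 Distal ones rose (13.5%) and 25 fell (15.3%).

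**Figure D2:**
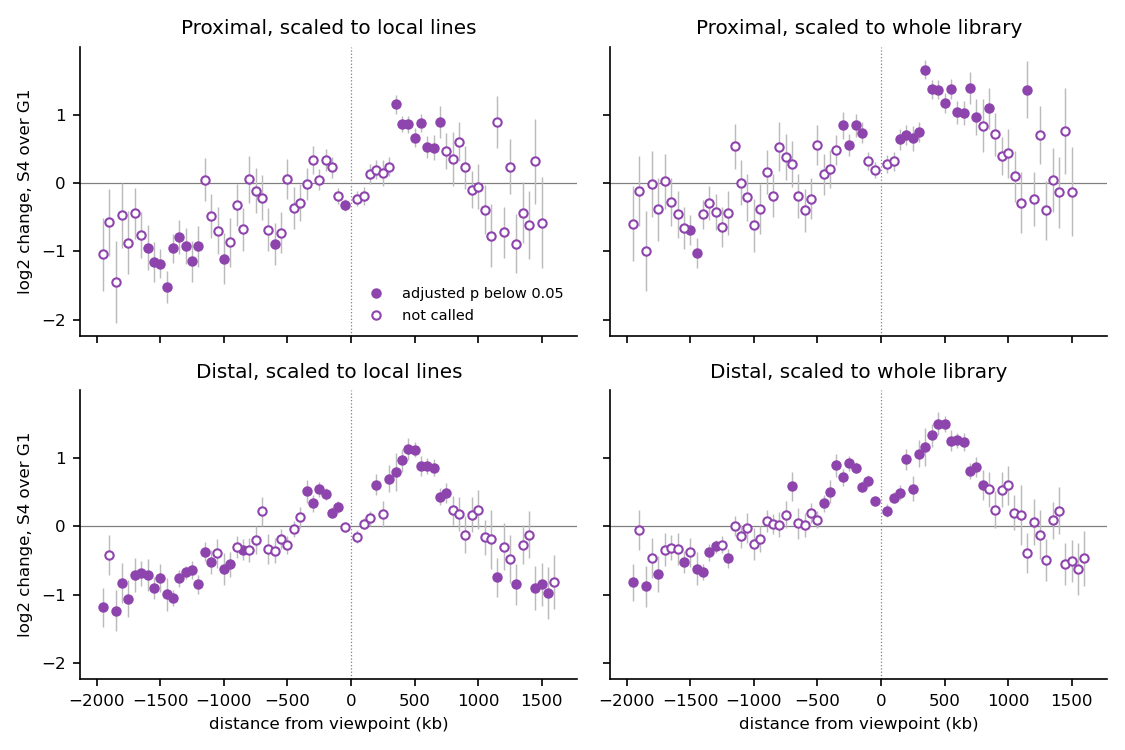
Log2 change of contacts, S4 over G1, in 50 kb windows against distance from the viewpoint in kb (negative towards lower coordinates), scaled to local contacts (left) and to all contacts of the library (right); bars are the standard error and filled points have an adjusted p below 0.05 (limma). Both primers have a called block on the higher side and, with local scaling, a called block of losses beyond 1 Mb on the lower side; with whole-library scaling the gains are larger and fewer losses are called.

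Among those tested, the called 10 kb windows sorted by side. All 13 called Proximal windows on the higher side were gains, 9 of the 25 tested at 250 to 500 kb and 4 of the 39 at 500 kb to 1 Mb. On the lower side 9 of the 10 called were losses, 8 of them among the 37 windows at 1 to 2 Mb. For Distal, all 24 called windows on the higher side were gains, 9 of 22 at 250 to 500 kb, 14 of 40 at 500 kb to 1 Mb and 1 of 15 at 100 to 250 kb. On its lower side 24 of 67 windows at 1 to 2 Mb and 1 of 48 at 500 kb to 1 Mb were losses, and 3 of 25 at 250 to 500 kb and 3 of 15 at 100 to 250 kb were gains. No window within 100 kb of the Distal viewpoint was called (limma), and for Proximal 1 was, as a loss. Beyond 1 Mb on the higher side, however, no Proximal window and only 2 Distal ones held enough contacts to be tested. Losses there could therefore hardly be called at 10 kb. At 20 kb, 1 of 17 such Proximal windows and 0 of 17 Distal ones were losses, and at 50 kb 0 of 11 and 5 of 12.

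The median log2 change over all 10 kb windows was 0.00 for Proximal and -0.03 for Distal with local scaling, and 0.48 and 0.35 with scaling to the whole library. On that second scale S4 was higher in 38 Proximal windows (20.8%) and lower in 2 (1.09%), and of the Distal windows 70 were higher (28%) and 7 lower (2.8%). With 50 kb windows it gave 19 higher (27.5%) and 2 lower (2.9%) for Proximal and 26 higher (36.6%) and 9 lower (12.7%) for Distal. A loss in local scaling is thus a loss relative to a zone that held more contacts in S4, and fewer losses were called relative to the whole library.

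The 10 kb counts changed when single libraries were left out and with the model. A fit without 1 of the 2 libraries of a group has a larger standard error. A call can therefore be lost in it with little change in the log2 value. Of 23 Proximal calls, leaving out S4 replicate 1 left 2 and leaving out S4 replicate 2 left 8, while 6 and 11 were called without the first and the second G1 library. Of 55 Distal calls, 33 and 31 were made without the first and the second S4 library, and 22 without G1 replicate 2. Without a trend of the spread with the level, limma called 4 Proximal windows, 32 Distal windows and 2 from both primers. A quasi-Poisson model of the contacts called 0 windows for either primer (29 Proximal and 66 Distal windows had an unadjusted p below 0.05, against 44 and 86 in limma), with smallest adjusted p of 0.0810 and 0.0603. In 50 kb windows it called 13 Proximal and 30 Distal windows.

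The firmest gain from the Proximal primer lay at 111950001 to 112020000, 325.1 to 395.1 kb above the viewpoint. This region held 722 and 654 per 10000 local contacts in S4 and 311 and 326 in G1. Its strongest window, at 112010001, held 100.4 and 88.6 per 10000 in S4 against 30.9 and 28.7 in G1, a log2 change of 1.62 (SE 0.31, limma, adjusted p = 0.000467). The 633 and 583 contacts of the region in S4 fell on 217 and 239 positions, and the 191 and 204 in G1 on 89 and 110. The most frequent position gave 2.05% and 2.06% of them in S4 and 5.24% and 3.92% in G1, so no single position carried the gain. The call held without any 1 of the 4 libraries, with the highest adjusted p at 0.0322, and ended in the quasi-Poisson model (adjusted p = 0.110).

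A second Proximal gain lay at 112070001 to 112180000, which held 982 and 983 per 10000 in S4 and 537 and 527 in G1. By summed gain it was the largest region over 50 kb from the viewpoint, at 451 per 10000. Its strongest window, at 112090001, had a log2 change of 1.13 (SE 0.29, limma, adjusted p = 0.00837). Its adjusted p became 0.0563 when G1 replicate 1 was left out, 0.0732 and 0.0754 for S4 replicates 1 and 2, and 0.0542 without the trend. The last Proximal gain, and the only one on the lower side, was the window at 111410001, with 53.6 and 49.3 per 10000 in S4 and 19.5 and 22.4 in G1 (log2 change 1.25, adjusted p = 0.0363). Without any 1 of its 4 libraries it was not called, with adjusted p of 0.114 to 0.245. It held 47 and 44 contacts in S4 on 16 and 23 positions, and its most frequent position gave 19.1% and 15.9% of them. Its call ended with each position counted once and without the trend (adjusted p = 0.116).

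From the Distal primer the largest gains on the higher side covered the same stretch, and smaller ones lay on either side of it. The region at 111940001 to 112020000 held 362 and 305 per 10000 in S4 and 132 and 135 in G1. Its strongest window, at 111970001, held 33.3 and 40.2 per 10000 in S4 against 8.33 and 12.0 in G1, a log2 change of 1.69 (SE 0.31, limma, adjusted p = 6.45e-06). The region at 112040001 to 112190000, with 13 called windows, held 754 and 785 per 10000 in S4 and 414 and 385 in G1, the largest summed gain of the primer. Its strongest window, at 112040001, held 55.5 and 58.4 per 10000 in S4 and 26.2 and 14.4 in G1 (log2 change 1.46, SE 0.29, adjusted p = 2.97e-05). Its S4 contacts, 815 and 860, fell on 508 and 548 positions, and its G1 contacts, 348 and 320, on 260 and 231. Both regions kept their call without any 1 of the 4 Distal libraries and lost it in the quasi-Poisson model (adjusted p = 0.0942 and 0.0603).

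**Figure D3:**
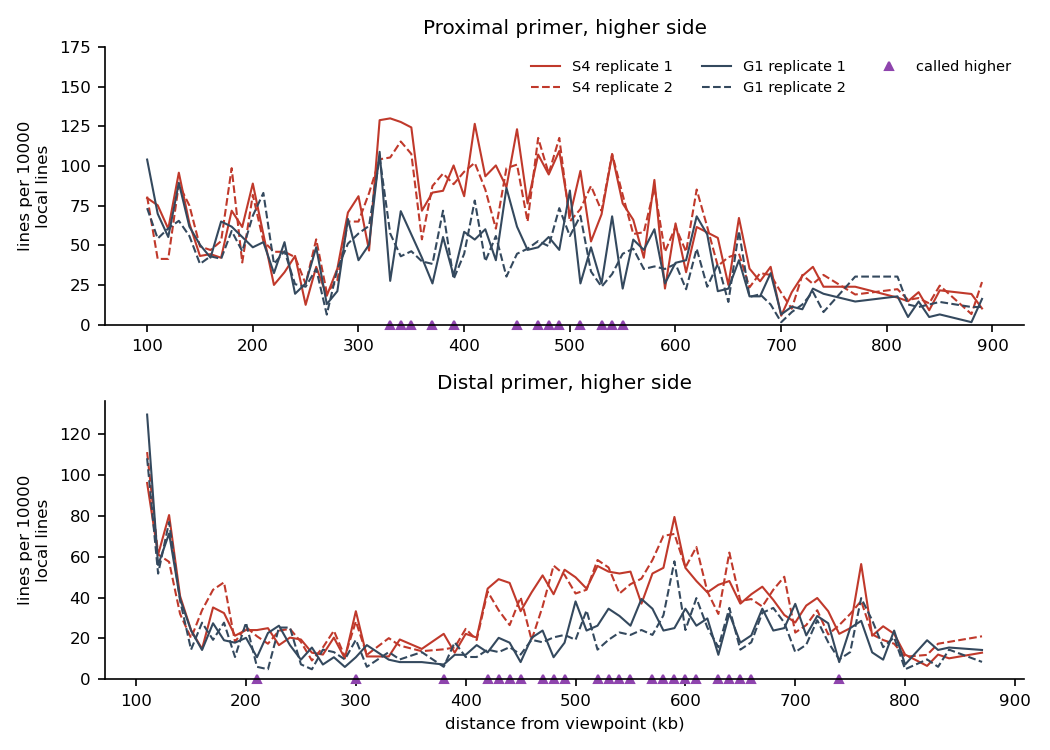
Contacts per 10000 local contacts in 10 kb windows on the higher side, against distance from the viewpoint in kb, for the Proximal (top) and Distal (bottom) primers; each line is 1 library and triangles mark windows called higher in S4. The S4 lines lie mostly above the G1 lines from 325.1 kb for Proximal and from 415 kb for Distal, over a band of called windows rather than at a single peak. For Distal, single called windows also lie at 210, 300, 380 and 740 kb.

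Other Distal gains at 10 kb were single windows or pairs. Farther out, 112260001 to 112270000 held 22.2 and 26.5 per 10000 in S4 and 8.33 and 9.63 in G1 (log2 change 1.27, adjusted p = 0.00283, and 0.0556 without S4 replicate 2). Between the Distal viewpoint and the main band, 111730001 to 111740000 held 24.0 and 21.0 in S4 and 10.7 and 6.02 in G1 (1.29, adjusted p = 0.00525, and 0.136 without G1 replicate 2 or 0.0690 without S4 replicate 1). The window at 111820001 held 33.3 and 28.3 in S4 and 10.7 and 19.3 in G1 (1.00, adjusted p = 0.0219, and 0.335 without G1 replicate 1, or 0.171 and 0.0647 without S4 replicates 1 and 2). Each of these 3 gains rested on at most 36 contacts in a library and lost its call without at least 1 library. At 50 kb, gains from Distal in this gap were called at 111700001 (0.61 in log2, adjusted p = 0.00224, limma), 111800001 (0.69, 0.00578) and 111900001 (0.96, 4.24e-05). Their calls held with any 1 S4 or G1 library left out, and the last includes the start of the region at 111940001. Between them, 111750001 was not called (0.18, 0.422), and 111850001 (0.79, 0.0192) lost its call without G1 replicate 1 or either S4 library.

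From the Distal viewpoint towards the Outside viewpoint, on the lower side, 3 further gains were named. The window at 111290001 held 127 and 90.4 per 10000 in S4 and 57.1 and 66.2 in G1 (log2 change 0.78, adjusted p = 0.00273, and 0.0518 without G1 replicate 1 or 0.146 without S4 replicate 1). The window at 111320001 held 142 and 146 in S4 and 97.6 and 80.6 in G1 (0.68, adjusted p = 0.00388, and 0.108 without G1 replicate 2). The region at 111190001 to 111210000 held 130.4 and 130.5 in S4 and 89.3 and 65.0 in G1 (0.81, adjusted p = 0.0264, and 0.261 without G1 replicate 2, or 0.0844 and 0.126 without S4 replicates 1 and 2). With each position counted once, the calls at 111290001 and 111190001 ended. Without the trend, those at 111190001, 111320001 and 111820001 ended (adjusted p = 0.101, 0.0654 and 0.0649). At 50 kb this side was a continuous block of 6 gains, 111150001 to 111450000, with log2 changes from 0.20 to 0.54. The 2 windows from 111250001 to 111350000 kept their call in every fit with 1 library left out, while the other 4 lost it in some, with adjusted p up to 0.233. These were 111150001 without replicate 2 of G1 or of S4, 111200001 without any library but G1 replicate 1, 111350001 without any but S4 replicate 2, and 111400001 without replicate 1 of G1 or of S4. A further 3 Distal regions were called beyond the 8 named, at 111100001, 111400001 and 111900001.

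The losses lay far out on the lower side. The firmest was the Distal region at 110100001 to 110200000, 1325 to 1425 kb below the viewpoint, with 9 called windows. It held 299 and 305 per 10000 in S4 and 544 and 570 in G1. Its strongest window, at 110110001, had a log2 change of -1.50 (SE 0.35, limma, adjusted p = 0.000677), kept its call without any 1 of the 4 libraries and lost it in the quasi-Poisson model (adjusted p = 0.0603). With scaling to the whole library it was still called (adjusted p = 0.00564), as were the strongest windows at 110070001, 109960001 to 110020000 and 110280001 to 110330000 (0.00615, 0.0448 and 0.0460). The Distal losses at 109860001 to 109890000, 110230001 to 110250000, 110430001 and 110640001 lost their call on that scale (0.0876, 0.0703, 0.0847 and 0.152). Of the 25 Distal windows called lower, 24 had both S4 libraries below both G1 libraries, in 8 regions from 109860001 to 110650000.

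The other 7 Distal losses had log2 changes of their strongest window from -0.99 to -1.88. The region at 110280001 to 110330000 held 95.3 and 90.4 per 10000 in S4 and 170.2 and 170.9 in G1 (-1.15, adjusted p = 0.00462, and 0.192 without G1 replicate 2). The region at 109960001 to 110020000 held 75.8 and 71.2 in S4 and 149 and 152 in G1 (-1.17, adjusted p = 0.00462, and 0.102 without G1 replicate 2 or 0.171 without S4 replicate 2). The region at 110230001 to 110250000 held 65.7 and 62.1 in S4 and 125 and 107 in G1 (-1.05, adjusted p = 0.00533, and 0.0739 without G1 replicate 1 or 0.204 without S4 replicate 2). With each position counted once, the region at 110230001 lost its call, and so did the window at 110640001, while those at 109860001 and 110070001 did not reach the minimum and were not tested. The smaller losses at 110070001 (-1.88), 110430001 (-1.10), 110640001 (-0.99) and 109860001 to 109890000 (-1.35) were less firm. The first lost its call without G1 replicate 1 or S4 replicate 2 (adjusted p up to 0.200) and the next without any library but S4 replicate 1 (up to 0.170). The window at 110640001 lost it without replicate 2 of G1 or of S4 (up to 0.359) and without the trend (0.112), and the last region without any 1 of the 4 libraries (up to 0.111).

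Proximal losses fell in the same neighbourhood and on few contacts. The region at 110160001 to 110200000 held 37.6 and 51.6 per 10000 in S4 and 182 and 105 in G1, and its strongest window, at 110160001, had 1 and 13 contacts in S4 against 23 and 17 in G1 (log2 change -2.46, SE 0.67, adjusted p = 0.00954). Without S4 replicate 1 that value was -1.07 (adjusted p = 0.467), and leaving out G1 replicates 1 and 2 gave 0.113 and 0.0646. The region at 110220001 to 110250000 held 21.7 and 24.7 in S4 and 81.3 and 75.1 in G1 (-2.01, adjusted p = 0.0124, and 0.150 without G1 replicate 1, or 0.0732 and 0.0737 without S4 replicates 1 and 2). The region at 110100001 to 110130000 held 26.2 and 25.8 in S4 and 86.2 and 76.7 in G1 (-1.62, adjusted p = 0.0129, and 0.245 without S4 replicate 1, or 0.0856 and 0.0646 without G1 replicates 1 and 2). In all 3 regions both S4 libraries held under 1 in 2 of the contacts per 10000 of either G1 library. The window at 110320001 had 1 and 8 contacts in S4 against 18 and 12 in G1 (-2.37, adjusted p = 0.0411, and 0.101 without G1 replicate 2 or 0.486 without S4 replicate 1). With scaling to the whole library the regions at 110160001 and 110220001 kept their call (adjusted p = 0.0263 and 0.0397), and those at 110100001 and 110320001 lost it (0.0638 and 0.0780). Without the trend of the spread, 110160001 and 110320001 lost theirs (0.123 and 0.0709). With each position counted once the region at 110100001 kept its call, and the other 3 did not reach the minimum. The only near loss, at 111590001, was small (-0.46, adjusted p = 0.0470). Its call was lost without G1 replicate 2 or either S4 library (adjusted p = 0.429, 0.255 and 0.150), and also with each position counted once. Its log2 change was 0.05 with scaling to the whole library (adjusted p = 0.863).

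At 50 kb, where each value rests on more contacts, 9 of the 12 Proximal losses adjoined each other from 110000001 to 110450000, and 16 of the 25 Distal ones did so from 109650001 to 110450000. The other Proximal losses were at 110600001, 111000001 and 111550001. The other Distal ones were at 109550001, 110500001, 110550001 and 110650001, with 5 more on the higher side. At 110100001 Proximal had 69.6 and 54.9 per 10000 in S4 and 138 and 148 in G1 (log2 change -1.18, adjusted p = 2.92e-05), and Distal had 118 and 110 in S4 and 237 and 241 in G1 (-1.05, adjusted p = 2.05e-07). At 110150001 Proximal had 50.2 and 62.8 in S4 and 211 and 129 in G1 (-1.52), and Distal had 180 and 194 in S4 and 307 and 330 in G1 (-0.76). These 2 windows were also called lower from both primers with scaling to the whole library, with Proximal changes of -0.68 and -1.02 and Distal changes of -0.67 and -0.38. The 5 Distal losses on the higher side were among its 12 windows beyond 1 Mb, at log2 changes of -0.75 to -0.97 on 8.21 to 46.4 contacts per 10000. All 5 lost their call without at least 2 of the 4 libraries, with adjusted p up to 0.278, and none was called with scaling to the whole library (limma).

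The next question was where both primers agreed. Of the 167 windows of 10 kb tested from both, 13 were higher from both, which is 92.9% of the 14 Proximal gains and 43.3% of the 30 Distal gains. A further 6 were lower from both, 66.7% of the 9 Proximal losses and 24.0% of the 25 Distal losses. Only 16 of those 25 Distal losses were also tested from Proximal. No window was called in opposite directions by limma. The 13 shared gains lay between 111950001 and 112180000 and the 6 shared losses between 110100001 and 110330000. Without Proximal S4 replicate 1 the 19 shared calls were 2, and they were 5 without Proximal G1 replicate 1, 7 without Proximal S4 replicate 2, 10 without Proximal G1 replicate 2 and 8 without Distal G1 replicate 2.

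**Figure D4:**
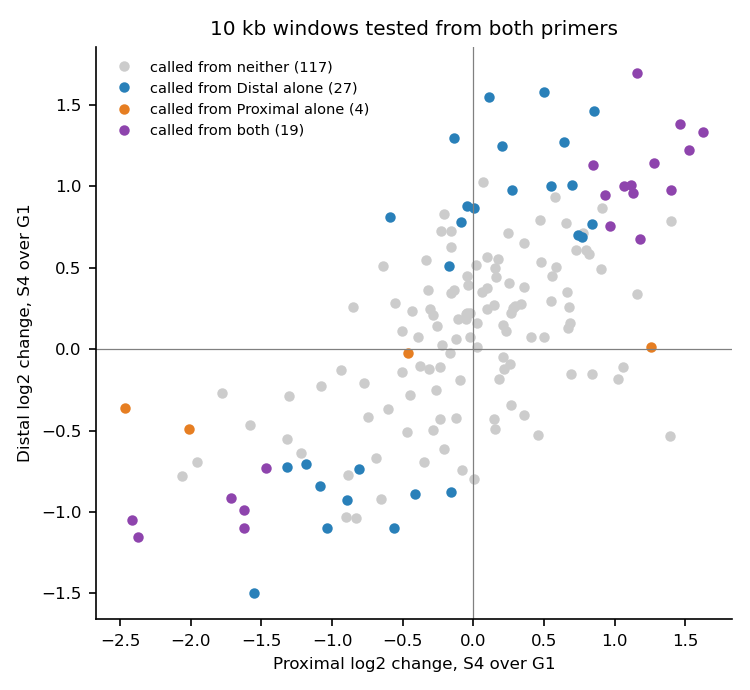
Log2 change of each 10 kb window tested from both primers, S4 over G1 and scaled to local contacts, from Proximal (x) and Distal (y); colours mark by which primer the window was called (adjusted p below 0.05, limma). The 19 windows called from both lie in the upper right (13) and lower left (6) corners.

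Windows called from 1 primer mostly had the same sign from the other. All 14 Proximal gains and all 9 Proximal losses did so from Distal. Of the Distal calls tested from Proximal, 25 of 30 gains and 16 of 16 losses did so. The share of same-sign windows among all 167 shared ones is not given here, so these counts do not set called windows apart. The 2 primers use different libraries of fractions with the same labels, and the labels do not tell whether these came from the same sorted cells. The signs therefore describe these samples and carry no test. With scaling to the whole library 30 windows of 10 kb were higher from both and 0 were lower from both (limma, with 2 Proximal and 7 Distal losses called).

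Of the 68 windows of 50 kb tested from both, 7 were higher from both primers, 87.5% of the Proximal and 41.2% of the Distal gains, and 9 were lower from both, 75.0% of the Proximal and 36% of the Distal losses. The 7 gains were adjoining, from 111950001 to 112300000, and so were the 9 losses, from 110000001 to 110450000. By log2 change the highest gain of both primers was in the window 111950001 to 112000000. There Proximal had 537 and 470 per 10000 in S4 and 224 and 225 in G1 (log2 change 1.15, SE 0.14, adjusted p = 4.07e-08). Distal had 223 and 155 in S4 and 90.5 and 78.2 in G1 (1.13, SE 0.16, adjusted p = 3.46e-06), and its following window, with 1.12 (SE 0.11), had the lower adjusted p, 4.07e-08. In the last of the 7 windows, at 112250001, the change was 0.52 for Proximal and 0.49 for Distal.

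The 5 windows from 111950001 to 112200000 kept their call from both primers in every fit with 1 library left out, with adjusted p no higher than 0.0235 for Proximal and 0.00209 for Distal. Over these 5 windows Proximal held 362 to 537 per 10000 in S4 and 184 to 285 in G1, with no overlap even between windows. The window at 112200001 lost its call without G1 replicate 2 for either primer (adjusted p = 0.170 Proximal, 0.0765 Distal) and for Proximal without S4 replicate 2 (0.165). The window at 112250001 lost it without any 1 of the Proximal libraries (up to 0.206) and without Distal S4 replicate 1 (0.0760). Among the losses, the 4 windows from 110050001 to 110250000 kept their call from both primers in every such fit, with adjusted p up to 0.0319 for Proximal and 0.0325 for Distal. The other 5 lost it without at least 1 library, and the highest adjusted p were 0.190 at 110000001 without Proximal S4 replicate 2 and 0.163 at 110350001 without Distal S4 replicate 2.

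The primers were also tested against each other. At 10 kb, no window was called as differing in its S4 change between Proximal and Distal (limma on all 28 libraries, 167 windows, 0.0% called). An unadjusted p below 0.05 was reached by 12 windows. Without a trend of the spread 13 reached it and 0 were called. The nearest was 111940001, with a log2 change of 0.11 from Proximal and 1.55 from Distal (difference -1.43, SE 0.40, adjusted p = 0.135). At 50 kb 1 of 68 differed, 111700001 to 111750000, with -0.19 from Proximal and 0.61 from Distal (difference -0.79, SE 0.21, adjusted p = 0.0300). The next was 111900001 to 111950000, just short of the shared gain, with 0.24 from Proximal and 0.96 from Distal (difference -0.72, SE 0.23, adjusted p = 0.0934). Both windows lie above both viewpoints, and leaving out libraries was not run for this 50 kb fit. In 10 kb windows the count was 2 without Proximal S4 replicate 2.

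The windows that hold the other viewpoints were not called with local scaling (limma). From Distal, the window with the Proximal viewpoint held 56.4 and 62.1 per 10000 in S4 and 44.0 and 55.4 in G1 (log2 change 0.25, SE 0.23, adjusted p = 0.470). From Proximal, the window with the Distal viewpoint held 67.3 and 85.2 in S4 and 84.6 and 75.1 in G1 (-0.07, SE 0.30). The window with the Outside viewpoint held 28.5 and 12.3 in S4 and 17.9 and 16.0 in G1 from Proximal, and 42.5 and 43.8 in S4 and 41.7 and 30.1 in G1 from Distal. At this depth of 10 to 76 contacts per window, no change of these pairs of viewpoints was detectable relative to the zone. On the scale of all contacts, the window of the Proximal viewpoint was higher in S4 from Distal (0.62, adjusted p = 0.0248).

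The name mid-S peak was checked against the neighbouring fractions S3 and S5. From Proximal, 0 of 183 windows differed between S4 and S3 (0.0% called, limma, 5 with an unadjusted p below 0.05, and 7 unadjusted and 0 called without the trend) and 1 differed between S4 and S5 (0.546%), at 111960001 (log2 change 1.16, adjusted p = 0.0328). From Distal, 1 of 250 windows differed in each comparison (0.4%), at 109990001 in both, with -1.50 against S3 (adjusted p = 0.00845) and -1.69 against S5 (adjusted p = 0.000768). Both comparisons use the same S4 libraries. With wider windows, the Distal count against S3 or S5 was 5 of 163 at 20 kb (all lower in S4). At 50 kb it was 7 of 71 (2 higher and 5 lower), so the Distal share called rose with the width. The Proximal count was 0 of 152 at 20 kb and 1 of 69 at 50 kb.

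Levels over all fractions were taken for the stretches bounded by the shared calls. The stretch 111950001 to 112180000 averaged 1124 per 10000 local Proximal contacts in G1, then 1445, 1724, 2070, 2136, 1853 and 1676 in S1 to S6. From Distal it averaged 557, 667, 799, 973, 1109, 1025 and 982. The stretch 110100001 to 110330000 averaged 630, 663, 479, 362, 290, 454 and 595 for Proximal and 1095, 1019, 865, 722, 624, 914 and 1063 for Distal. By the mean, S4 was therefore the highest fraction of the gained stretch and the lowest of the lost one from both primers, relative to local contacts. The Proximal S3 libraries, at 2089 and 2051, overlapped those of S4, at 2192 and 2080, in the gained stretch. Of the higher-side classes, Proximal at 500 to 1000 kb and Distal at 250 to 500 kb were highest in S4. Proximal at 250 to 500 kb was highest in S3 (21.6% against 21.2% in S4), and Distal at 500 to 1000 kb in S6 (15.1% against 14.5%). In S6 the lost stretch was near its G1 level on that scale, but as a share of all contacts it stood above it, at 3.00% in S6 against 2.39% in G1 for Proximal and 6.88% against 5.59% for Distal. The bounds of both stretches were taken from the calls in S4, so their levels are a description and carry no test.

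**Figure D5:**
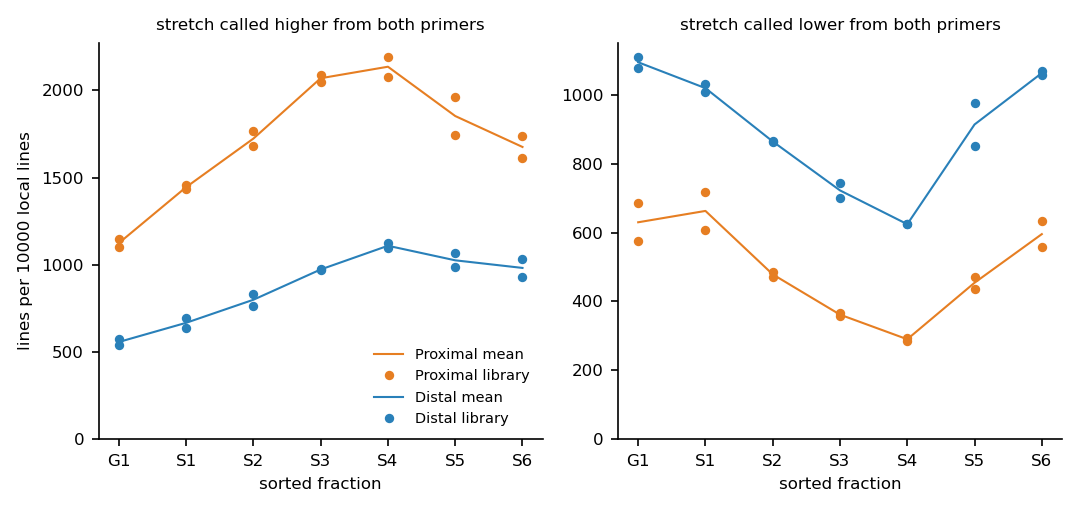
Contacts per 10000 local contacts in the stretches 111950001 to 112180000 (left) and 110100001 to 110330000 (right) by sorted fraction, with points for single libraries and lines through the mean of 2. By the mean, the gained stretch is highest in S4 (2192 and 2080 for Proximal, overlapping S3) and the lost stretch lowest in S4 (286 and 294 for Proximal).

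Within these stretches, S4 libraries held 2192 and 2080 per 10000 local Proximal contacts in the gained stretch against 1147 and 1102 in G1, a fold of 1.90, or 2.71 as a share of all contacts. From Distal they held 1125 and 1093 against 574 and 540, a fold of 1.99, or 2.59 as a share of all contacts. In the lost stretch Proximal had 286 and 294 in S4 against 685 and 575 in G1, a fold of 0.460 and of 0.657 as a share of all contacts. Distal had 624.2 and 624.3 in S4 against 1078 and 1111 in G1, a fold of 0.570 and of 0.743. On either scale the direction was the same from both primers. The stretches were bounded by windows already called in these directions from both primers. This agreement and the size of the folds therefore carry no test.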

How the data were processed

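Per the labels' protocols, ligated DNA was sonicated and copied from a biotinylated primer, and a barcoded adapter was added before sequencing. Per the submitters' processing notes, cutadapt, bedtools and the build hg19 were used; their versions, the aligner and the use made of barcodes were not given in the sources used. The deposited files hold no count or score, only 1 genomic position per line, and every library holds 16350 lines, so the depth before that is unknown.

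Lines over 20 kb and up to 2 Mb from the viewpoint (the most frequent position) were counted in windows of 10, 20 and 50 kb. Windows averaging 10 or more lines were kept, 183 Proximal and 250 Distal of 394 at 10 kb. Values were scaled to the local lines, or to the whole library, and tested as log2(value + pseudocount), with pseudocounts of 0.907 (Proximal) and 1.84 (Distal) lines, so changes of low windows are understated. limma 3.58.1 (R 4.3.3; eBayes with trend; 14 libraries, 7 fractions) was used, with Benjamini-Hochberg adjustment over all windows of a primer. The scripts were tested on simulated data. Called windows with both S4 libraries on one side of both G1 libraries were joined across gaps of up to 1 window. The 8 regions of lowest p per direction and primer were named. A region's change is that of its strongest window. Between replicates, chi-square per degree of freedom was 2.09 (S4) and 2.32 (G1) for Proximal and 1.33 and 1.28 for Distal. In the deviations of windows, replicate numbers were not found to pair samples. From Distal, however, replicate 1 had the lower share within 20 kb in every fraction from S1 to S6 (14.9% against 16.5% in S4). In G1 the order was the reverse (17.2% against 16.3%), and for Proximal it varied. Replicate 1 also had the larger share of repeated local positions in every fraction but S2, from Proximal and from Distal. In S1 that share was 63.1% against 52.1% for Proximal and 45.4% against 37.1% for Distal. Whether the replicate numbers mark batches was not tested. Where 1 library of a group was left out, the other was assumed to vary like the rest. Members, lists and tests were chosen with earlier results of these data known. No sequence of hg19 was used here. Tables were made with Python 3.11.15, numpy 2.4.6, pandas 2.3.3 and matplotlib 3.10.9.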

Additional observations from a re-analysis of the deposited data

How the results depend on the processing

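The count of Proximal 10 kb windows called, 23, was 40 with scaling to the whole library, 52 with that scaling in 20 kb windows, 13 with each position counted once, 4 without the trend and 0 in the quasi-Poisson model, and ranged from 2 to 11 with 1 library left out. The Distal count, 55, was 32 without the trend, 0 in the quasi-Poisson model and 35 with whole-library scaling in 50 kb windows, and 22 to 37 with 1 library left out. The 19 windows called from both were 30 with whole-library scaling, 35 with it in 20 kb windows, 10 with each position once, 2 without the trend and 0 in the quasi-Poisson model, and 2 to 14 with 1 library left out. Windows that differed between primers, 0, were 1 at 50 kb and 0 to 2 with 1 library left out. Proximal windows that set S4 apart from S3 or S5, 1, were 0 at 20 kb, 0 with each position once, 2 without the trend and 0 to 2 with 1 library left out. The Distal count, 1, was 5 at 20 kb, 7 at 50 kb, 0 with a minimum of 20 lines and 0 to 1 with 1 library left out. At 50 kb, the 20 Proximal calls were 13 in the quasi-Poisson model and 12 to 16 with 1 library left out, the 42 Distal calls 28 to 31, and the 16 shared calls 10 in that model and 11 to 15. These counts have different bases by width: 183 Proximal and 250 Distal windows at 10 kb, 152 and 163 at 20 kb, and 69 and 71 at 50 kb. Windows tested from both primers numbered 167, 144 and 68. At 10 kb, whole-library scaling called 70 Distal windows higher and 7 lower. The 35 Distal calls at 50 kb were a larger share of the windows tested than the calls at 10 kb on either scale. Whole-library scaling with 20 and 50 kb windows, and the alternatives of the 50 kb fits, were added after seeing the data.

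Some differences in share, S4 minus G1 in points, changed sign. With all lines, and with lines over 20 kb away, as the whole, they were 1.15 and 0.941 (Proximal, higher side, 20 to 100 kb), 0.205 and 0.0188 (Proximal, higher, 1 to 2 Mb), 0.948 and 0.595 (Proximal, lower, 20 to 100 kb), 1.95 and 0.233 (Proximal, lower side in all), 1.09 and 1.21 (Distal, higher, 20 to 100 kb), 0.321 and 0.307 (Distal, lower, 500 to 1000 kb) and 6.21 and 6.87 (Distal, lower side in all). With each position once, Distal at 20 to 100 kb on the lower side was -0.169. The Proximal loss at 111590001 was 0.0479, 0.0546 and 0.195 with whole-library scaling at 10, 20 and 50 kb, and the Distal loss at 110640001 was 0.0752 at 50 kb. The causes were not tested.

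For the named regions, 348 of the values under alternatives kept direction and side of the threshold, 114 lost the call and 4 reversed. Replicate numbers were shared by the groups, but the deviations of same-numbered S4 and G1 libraries correlated at 0.013 for Proximal and 0.075 for Distal. A replicate block gave 24 Proximal, 55 Distal, 20 shared and 0 differing windows, and 1 each against S3 and S5. The depth, 16350 lines a library, limits what can be called in narrow windows.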
